A study of Rattus norvegicus with 4 samples.

Results

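Interferon-induced antiviral effectors are the proteins that a cell makes after an interferon has bound its receptors, and they block the entry, translation, replication or release of viruses. In this study their transcripts were followed in cultured rat aortic smooth muscle cells given the inflammatory cytokine interleukin-1 beta (IL-1b). The group was a list of 50 gene symbols, and a gene was included when the array's annotation gave a probe set to that symbol alone. That left 43 genes with 55 probe sets, out of 14217 genes with such a probe set on the array. Oas2, Oas3, Oasl2, Gbp5, Xaf1, Trim21 and Samd9l had no probe set of that kind and were not analysed here.

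The cells came from aortas of Sprague-Dawley rats, where smooth muscle forms the media and sets vessel tone. They were kept 5 days in medium with 10% serum and then 3 days without serum. Of the samples, 2 were then given 2.5 ng/mL of IL-1b for 24 hours, and 2 were given 0.1% bovine serum albumin, the vehicle, for as long. Messenger RNA of each sample was measured on its own single-colour array, as intensities in MAS5 units. No label says whether replicates were separate cultures, so the p-values cover no more than the variation among these arrays, possibly technical.

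Type I interferons act through the receptor chains Ifnar1 and Ifnar2, the kinases Jak1 and Tyk2, and a complex with Stat2 and Irf9 that binds the interferon-stimulated response element in promoters. Interferon gamma acts through Ifngr1 and Ifngr2, and its best known promoter element is the gamma-activated site. Cells without infection keep a basal level of many of these genes. IL-1b signals through another receptor, whose best known nuclear factor is NF-kB.

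Levels of many interferon-induced transcripts were lower in smooth muscle cells given IL-1b. Among 41 of the 43 genes that were bright enough to test, 25 fell, 0 rose and 16 did not pass an adjusted p of 0.05 (limma, Benjamini-Hochberg over all probe sets). Over all 10000 genes tested, 8.13% fell and 7.19% rose. When dim probe sets were kept, 25 of 43 genes fell and 0 rose, against 5.87% and 4.97% of 14217 genes. At an unadjusted p of 0.05, 29 of the 41 genes were lower and 0 were higher in the same limma fit. Of all 10000 genes tested, 1592 were lower and 1398 higher at that p. The falls reached at least 2-fold in 17 of the 41 genes, a size reached by 5.6% of all genes. The median log2 fold change of the 41 genes was -0.94, beside -0.01 for all genes tested. The log2 fold change was below 0 in 37 of 41 genes, beside 50.5% of all genes. The groups did not overlap in 37 of 41 genes, beside 61.3% of all genes. Folds here are on the scale of log2(intensity + 5.49), which understates the change of dim genes.

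**Figure D1:**
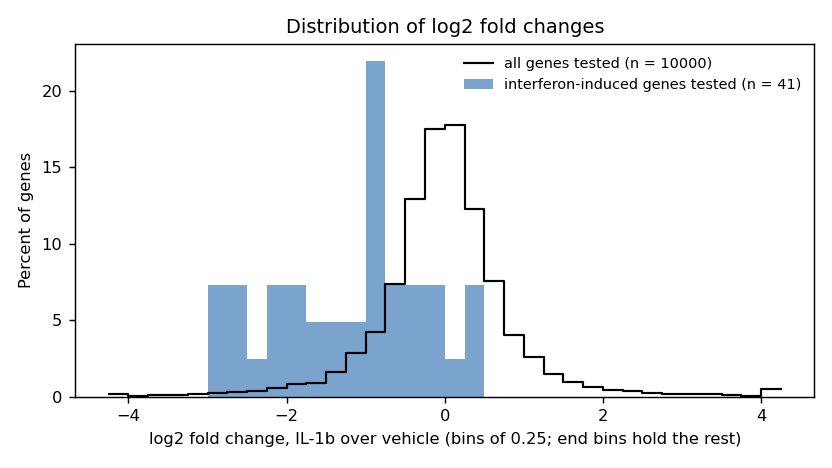
Percent of genes (y axis) by log2 fold change of IL-1b over vehicle (x axis, bins of 0.25) for the 41 interferon-induced genes tested (bars) and all 10000 genes tested (line). The bars lie mostly to the left of 0, with the median at -0.94, and the line is centred near 0, with the median at -0.01.

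The count depended on which arrays entered the fit, and the share of all genes called lower moved in the same direction. Leaving out vehicle replicate 1 or 2 lowered both the count and that share. Leaving out IL-1b replicate 1 or 2 raised both the count and that share. In such a fit the remaining array of a group borrows the other group's spread. Without IL-1b replicate 2 the log2 fold changes of Ifitm2, Ifitm3 and Ifi27 were 0.70, 0.76 and 0.83. Without the intensity trend of the variance the count was 13, beside 2.79% of all genes. With arrays centred on their medians it was 17, beside 6.16% of all genes. Znfx1, Gbp2, Trim25, Parp9, Parp12, Dtx3l, Bst2, Sp100 and Tdrd7 missed the threshold with median centring, and Herc6 passed it. The same genes, apart from Herc6, were among those that missed it without the intensity trend. With quantile normalization Znfx1, Bst2 and Sp100 missed it. Median centring moved the median of all genes to -0.21. It also changed the genes called over the whole array from 813 lower and 719 higher to 616 lower and 337 higher. All 25 genes kept a log2 fold change below 0 in each of the 16 alternative settings. Ifit3, Oas1a, Mx1, Mx2, Gbp4, Igtp, Irgm, Isg15, Usp18, Rsad2, Cmpk2 and Rtp4, 12 in all, also stayed past the threshold in each of them.

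**Figure D2:**
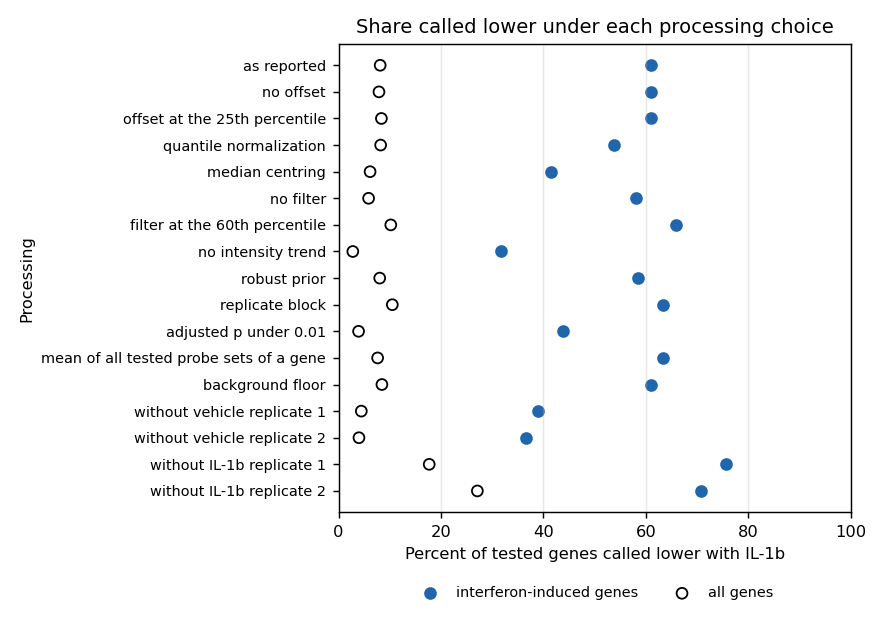
Percent of tested genes called lower with IL-1b (x axis) under the reported processing and each of 16 alternatives (y axis), for the interferon-induced genes (filled points) and for all genes tested (open points). The share of interferon-induced genes was 61.0% as reported, beside 8.13% of all genes. It was lowest without the intensity trend, at 31.7% beside 2.79% of all genes. It was highest without IL-1b replicate 1, where the share of all genes was also above the reported one. The share of interferon-induced genes lay above the share of all genes in every setting run.

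On the arrays as a whole, IL-1b replicate 1 stood apart. Bacterial hybridisation controls read 3.61 times their vehicle mean on it, against 0.958 times on IL-1b replicate 2, and its median intensity was 89.6 against 61.3 to 66.4 on the other arrays. Background, taken as the 95th percentile of 26 dim bacterial control probe sets, was 60.8 on that array and 18.8 to 29.4 on the others. Among the 41 genes, 23 read higher on IL-1b replicate 1 than on IL-1b replicate 2, with a median difference of 0.06 (log2). The part of this array in the results was not tested beyond leaving it out.

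**Figure D3:**
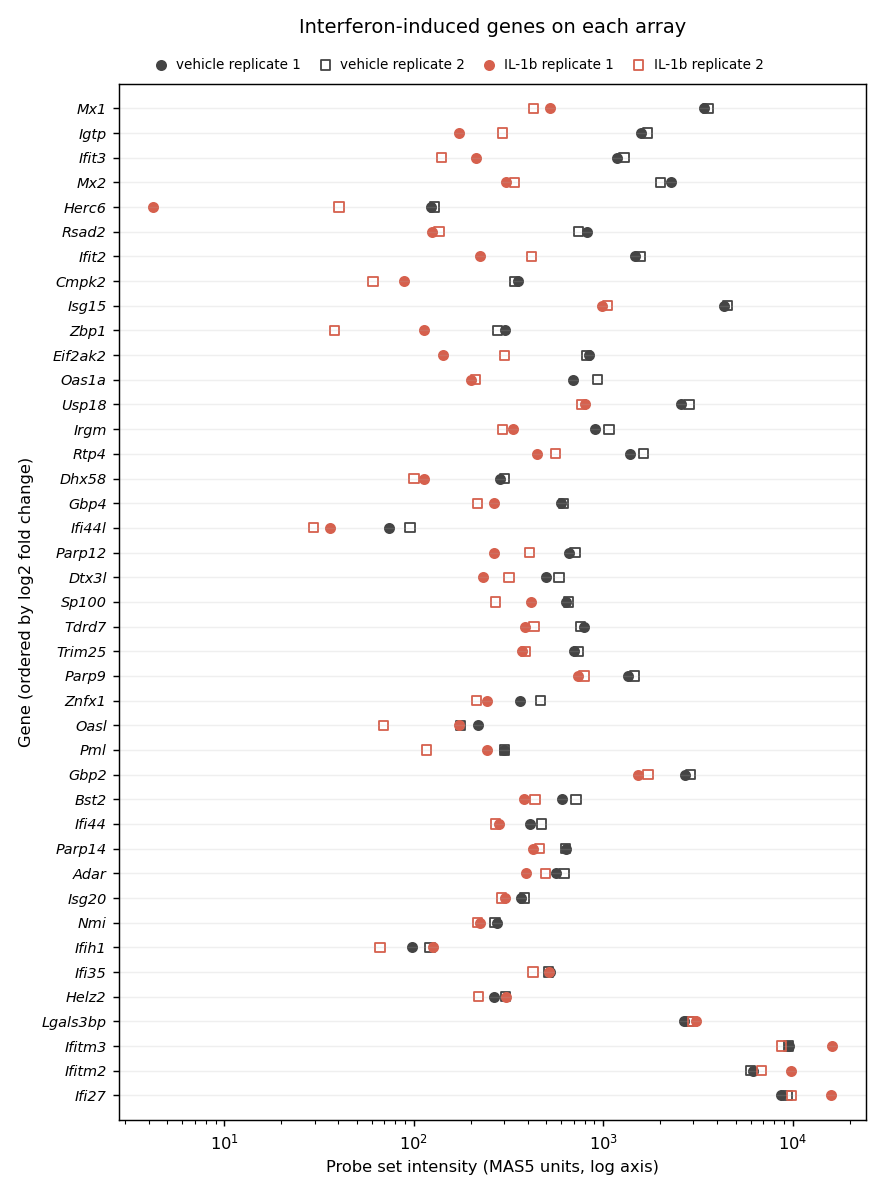
Intensity of the brightest probe set of each of the 41 tested genes (x axis, MAS5 units on a log axis) on each of the 4 arrays, with genes ordered by log2 fold change from the lowest on top (y axis). Points are single arrays. The vehicle arrays lie close together for Mx1, at 3404 and 3576, and well to the right of the IL-1b arrays, at 526 and 427, whereas for Lgals3bp the arrays lie between 2665 and 3086.

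Promoter sequences were set beside these changes because the genes share a known control element. Promoter windows of 250 bases before and 50 bases after the annotated start were taken from RefSeq on build GRCr8 and matched 34 of the 43 genes, taking the first window where a gene had several. Adar, Dhx58, Ifit1, Ifit2, Isg15, Mx2, Rtp4, Usp18 and Zbp1 had no entry. The core letters of the interferon-stimulated response element, GAAA followed by any 2 bases and GAAA again, were searched on both strands. They were present in 23 of 34 windows (67.6%), and in 3.92% of all 33469 windows of that length. In 21 of the 34 windows (61.8%) a match began in the last 150 bases upstream of the start and ended before it, against 2.05% of all windows. The letters were in 11 of 18 windows of genes that fell and in 11 of 15 windows of genes that did not pass, and the difference between these shares was not tested. They were also in the windows of Ifi27, Ifitm2, Ifitm3 and Lgals3bp, the 4 tested genes with a log2 fold change above 0 (below 0 for Lgals3bp with median centring). They were not found in the window of Mx1, Cmpk2, Trim25, Parp9, Sp100, Tdrd7 or Znfx1, which fell. For Cmpk2, Parp9 and Tdrd7 the window used lay inside the gene, so the region at the gene's outer 5′ end was not searched. Some windows with a match also lay inside the gene, such as those of Isg20 and Pml. A match is a description of letters and not a binding site.

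**Figure D4:**
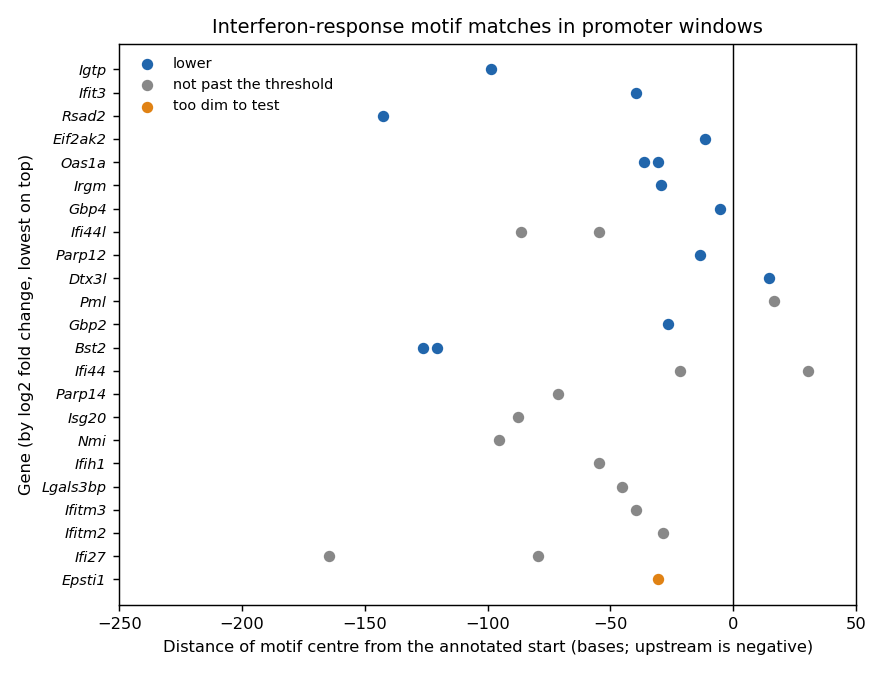
Position of each match to the interferon-stimulated response element letters, on either strand, relative to the annotated start (x axis, bases, upstream negative) in the 23 promoter windows with a match (y axis, ordered by log2 fold change, with Epsti1, too dim to test, at the bottom). Colours give the call, and matches lie near the start both for genes that fell and for genes that did not pass.

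The windows below show the match in the 4 genes with the largest falls among those that fell and had one upstream of the start. Each is written 5′ to 3′ on the strand of its gene, and capitals mark the response element letters or their reverse complement (TTTC, any 2 bases, TTTC), and the gamma-activated site letters TTCNNNGAA, which read alike on both strands.
Igtp: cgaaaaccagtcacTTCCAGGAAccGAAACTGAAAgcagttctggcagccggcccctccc
Ifit3: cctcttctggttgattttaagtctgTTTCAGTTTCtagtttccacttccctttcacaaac
Rsad2: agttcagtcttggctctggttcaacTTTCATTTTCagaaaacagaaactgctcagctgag
Eif2ak2: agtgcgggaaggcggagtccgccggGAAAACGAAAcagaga
These lie at chr10:42874919-42874978 (plus strand), chr1:241527257-241527316 (plus), chr6:48788233-48788292 (minus) and chr6:21941113-21941153 (plus). The response element letters began 103, 44, 147 and 16 bases before the annotated start, in the same order.

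In Igtp the gamma-activated site letters began 11 bases before the response element letters. The same spacing was present in Irgm, which fell, and in Parp14, which did not pass. Both are shown because of that spacing, noticed after the matches were seen.
Irgm: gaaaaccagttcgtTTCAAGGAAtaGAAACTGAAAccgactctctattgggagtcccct
Parp14: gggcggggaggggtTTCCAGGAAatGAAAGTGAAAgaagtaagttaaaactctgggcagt
They lie at chr10:33742579-33742637 (minus strand) and chr11:78408033-78408092 (plus). Counting either order of the letters, starts 11 bases apart were found in 4 of 34 windows of the group and in 6 of all 33469 windows. The letters TTCNNNGAA alone were in 7 of 34 windows (20.6%), and in 8.87% of all windows. All 7 of these windows also held the response element letters, and the letters overlapped in Bst2.

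For contrast, chosen after the values were seen, the windows of the 3 genes with the highest log2 fold changes are given.
Ifi27: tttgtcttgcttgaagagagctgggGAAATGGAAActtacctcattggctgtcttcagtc
Ifitm2: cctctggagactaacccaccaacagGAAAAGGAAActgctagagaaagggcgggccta
Ifitm3: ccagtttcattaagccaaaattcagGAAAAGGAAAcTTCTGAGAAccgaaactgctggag
They lie at chr6:128355203-128355262 (plus strand), chr1:205482349-205482406 (minus) and chr1:205541768-205541827 (minus), with the response element letters 84, 33 and 44 bases before the start. In Ifitm3 the gamma-activated site letters followed the response element letters, with starts 11 bases apart.

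The interferon-induced GTPases fell in each of the 6 genes tested. This count and the counts by role below stand beside 8.13% of all genes lower and 7.19% higher. Mx1 and Mx2 assemble on viral nucleoprotein complexes, and the guanylate-binding proteins Gbp2 and Gbp4 and the immunity-related GTPases Igtp and Irgm act on membranes of pathogen-containing vacuoles. Mx1 read 3404 and 3576 with vehicle and 526 and 427 with IL-1b. This was a 7.29-fold fall, with a log2 fold change of -2.87 ± 0.16 (SE, limma adjusted p = 1.1e-04). Mx2 read 2286 and 2010 with vehicle and 309 and 340 with IL-1b, a log2 fold change of -2.71 ± 0.15 (adjusted p = 1.1e-04), and its other probe set gave -2.77. Vehicle arrays were far above IL-1b arrays for both Mx genes, and the spread within a group was small beside the change.

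Igtp read 1591 and 1720 with vehicle and 174 and 295 with IL-1b, a log2 fold change of -2.84 ± 0.25 (adjusted p = 5.7e-04). Its other probe set read 504 and 442 with vehicle and 14.0 and 140 with IL-1b, so that IL-1b replicate 1 was below background there. A further probe set, which carries Igtp together with Igtpl1 and Irgm2, was not used. It read 82.6 and 83.0 with vehicle and 79.3 and 51.9 with IL-1b. Irgm read 903 and 1075 against 336 and 295, a log2 fold change of -1.63 ± 0.17 (adjusted p = 0.0012). Gbp4 fell 2.50-fold, from 599 and 618 to 266 and 217 (adjusted p = 0.0041). Gbp2 fell 1.72-fold, from 2701 and 2893 to 1527 and 1725 (adjusted p = 0.014), and missed the threshold without vehicle replicate 1 or 2 (0.14 and 0.25). The groups did not overlap in any of these GTPases, but that also held for 61.3% of all genes. The size of the fall ranged from 1.72-fold to 7.29-fold.

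Among genes for proteins that bind or cut RNA, 5 of the 8 tested fell and 3 did not pass. Of the Ifit proteins, Ifit1 binds viral RNA at its 5′ end. Ifit3 read 1189 and 1288 with vehicle and 214 and 140 with IL-1b, a log2 fold change of -2.80 ± 0.22 (adjusted p = 3.9e-04). Ifit2 read 1475 and 1575 against 224 and 420, a log2 fold change of -2.29 ± 0.28 (adjusted p = 0.0025), and -2.33 at its other probe set. For both, every vehicle array was above every IL-1b array. Ifit1 was too dim to test, with 2.52 and 25.4 in the vehicle samples and 14.9 and 3.32 with IL-1b, and only 1 of these 4 values above background.

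Oas1a makes the 2′-5′ oligoadenylates that switch on RNase L. It read 691 and 934 with vehicle and 201 and 212 with IL-1b, a log2 fold change of -1.94 ± 0.20 (adjusted p = 0.0012). Eif2ak2, the kinase PKR that halts translation on double-stranded RNA, read 840 and 819 against 144 and 302, a log2 fold change of -1.96 ± 0.32 (adjusted p = 0.0087). The vehicle arrays agreed closely for Eif2ak2 and the IL-1b arrays differed from each other. Zbp1, a sensor of Z-form nucleic acid that can start necroptosis, read 303 and 278 against 114 and 38.1. Its log2 fold change was -2.04 ± 0.47 (adjusted p = 0.033), or -2.76 and -1.31 with IL-1b replicates 1 and 2 left out in turn. In a fit with no intensity trend Ifit2, Eif2ak2 and Zbp1 had adjusted p of 0.051, 0.081 and 0.13.

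Oasl, Isg20 and Adar did not pass. Oasl, a relative of Oas1a without synthase activity, read 219 and 177 with vehicle and 172 and 69.1 with IL-1b (log2 fold change -0.81, adjusted p = 0.28). Its log2 fold change was -1.44 and -0.18 with IL-1b replicates 1 and 2 left out in turn. The exonuclease Isg20 read 370 and 385 against 303 and 292 (adjusted p = 0.26). Adar, which converts adenosine to inosine in double-stranded RNA, had 3 probe sets with log2 fold changes of -0.43, -0.28 and -0.05. In these 3 genes the IL-1b arrays were below the vehicle arrays at the brightest probe set, by amounts that did not pass the test.

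Of the helicase sensors and related genes, 2 of 4 fell. Dhx58, also called LGP2, is a regulator of the RIG-I-like sensors. It read 286 and 302 with vehicle and 113 and 100.4 with IL-1b, a log2 fold change of -1.42 ± 0.24 (adjusted p = 0.0090). It missed the threshold without vehicle replicate 1 or 2 (0.066 and 0.11). Its other probe sets, of a kind whose probes may match other transcripts, gave -1.40 (past the threshold) and -0.62 (not past). Znfx1, a helicase that binds viral RNA, fell 1.77-fold (adjusted p = 0.043) and missed the threshold without vehicle replicate 1 or 2 (0.11 and 0.48). Ifih1, the long double-stranded RNA sensor MDA5, read 98.2 and 122 with vehicle and 127 and 66.4 with IL-1b, and Helz2 read 266 and 305 against 306 and 220.3. The groups overlapped for Ifih1 and Helz2.

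In the ISG15 system, 3 of the 4 tested genes fell. Isg15 is a ubiquitin-like protein that is joined to other proteins, and Usp18 removes it and also restrains Ifnar2. Isg15 read 4336 and 4515 with vehicle and 984 and 1050 with IL-1b, a log2 fold change of -2.12 ± 0.14 (adjusted p = 1.8e-04). Usp18 read 2581 and 2841 against 801 and 769, a log2 fold change of -1.78 ± 0.14 (adjusted p = 3.6e-04). Both had tight replicates in both groups, and groups far apart.

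Trim25, a ubiquitin ligase that acts on RIG-I, fell 1.88-fold from 700 and 740 to 372 and 390 (adjusted p = 0.0095), and missed the threshold without vehicle replicate 1 or 2 (0.077 and 0.14). Herc6, which in rodents is a ligase for Isg15, read 123 and 128 with vehicle and 4.22 and 40.3 with IL-1b. Its log2 fold change of -2.64 ± 0.81 did not pass (adjusted p = 0.082), and it was -1.25 when values below an array's background were raised to it (0.076). Both vehicle arrays were above background for Herc6, and of the IL-1b arrays only replicate 2 was. Its log2 fold change was -1.52 and -3.76 with IL-1b replicates 1 and 2 left out in turn. Herc6 passed with the arrays median-centred (limma adjusted p = 0.020).

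Parp9 and its partner ligase Dtx3l form a complex in the interferon response, and Parp12 and Parp14 are ADP-ribosyltransferases. Of these 4 genes 3 fell and none rose. Parp12 fell 2.06-fold (adjusted p = 0.026), Dtx3l 1.97-fold (0.025) and Parp9 1.84-fold (0.0078). Parp9 read 1360 and 1461 with vehicle and 735 and 794 with IL-1b, and Dtx3l 502 and 585 against 232 and 319. Parp14 read 641 and 635 against 429 and 462 and did not pass, at -0.51 ± 0.15 (log2, adjusted p = 0.074). Parp9 missed the threshold without vehicle replicate 1 or 2 (0.060 and 0.12), as did Dtx3l (0.053 and 0.20), and Parp12 missed it without vehicle replicate 2 (0.092).

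Rsad2 (viperin), a radical-SAM enzyme that makes a chain-terminating nucleotide, and Cmpk2, a mitochondrial nucleotide kinase that works upstream of it, both fell. Rsad2 read 826 and 740.3 with vehicle and 125 and 136 with IL-1b, a log2 fold change of -2.53 ± 0.18 (adjusted p = 2.6e-04). Cmpk2 read 356 and 341 against 89.4 and 61.1, a log2 fold change of -2.16 ± 0.28 (adjusted p = 0.0032), and -2.12 at its other probe set. The groups lay far apart for both genes.

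Of the 3 membrane restriction factors 1 fell and 2 did not pass. Bst2 (tetherin), which holds budding virus at the cell surface, fell 1.60-fold from 603 and 719 to 384 and 437 (adjusted p = 0.045). It missed the threshold without vehicle replicate 1 or 2 (0.16 and 0.49), with quantile normalization (0.059), with median centring (0.23) and with a robust prior (0.054). Ifitm2 and Ifitm3 block virus fusion in endosomes and have closely related sequences, so their probe sets may not tell them apart fully. Ifitm3 read 9611 and 9531 with vehicle and 16250 and 8719 with IL-1b (log2 fold change 0.31, adjusted p = 0.55). Ifitm2 read 6155 and 5986 against 9862 and 6840 (log2 fold change 0.44, adjusted p = 0.25). For both, IL-1b replicate 1 was the highest array, and without it the log2 fold changes were -0.13 and 0.17.

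Of the genes of nuclear bodies and the Nmi-Ifi35 pair, 1 of 4 fell. Sp100, a scaffold of PML bodies, fell 1.92-fold from 639 and 658 to 418 and 270 (adjusted p = 0.039), and missed the threshold without vehicle replicate 1 or 2 (0.095 and 0.14). Pml, the body's organiser, read 299 and 302 against 244 and 117 (log2 fold change -0.81, adjusted p = 0.19), and its log2 fold change was -1.32 and -0.29 with IL-1b replicates 1 and 2 left out in turn. Nmi and Ifi35, which bind each other, had log2 fold changes of -0.29 and -0.14 (adjusted p = 0.39 and 0.63).

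Of the other interferon-induced genes, 2 of 6 tested fell. Rtp4, a protein induced by interferon and known as a receptor chaperone, read 1391 and 1629 with vehicle and 448 and 561 with IL-1b, a log2 fold change of -1.58 ± 0.17 (adjusted p = 0.0015). Tdrd7, a tudor-domain protein, fell 1.90-fold (adjusted p = 0.0092), and missed the threshold without vehicle replicate 1 or 2 (0.099 and 0.077). Ifi44 and Ifi44l are cytoplasmic proteins induced by interferon. Ifi44 read 412 and 472 with vehicle and 283 and 271 with IL-1b and just missed the threshold (adjusted p = 0.055). Ifi44l read 74.1 and 95.6 against 36.2 and 29.7 (log2 fold change -1.23, adjusted p = 0.18), with IL-1b replicate 1 below background.

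Ifi27, a mitochondrial protein induced by interferon, read 8639 and 9436 with vehicle and 16018 and 9911 with IL-1b (log2 fold change 0.48, adjusted p = 0.29). Lgals3bp, a secreted glycoprotein that binds galectin-3, read 2665 and 2861 against 3086 and 2968 (log2 fold change 0.13, adjusted p = 0.60, and below 0 with median centring). The highest array for Ifi27 was IL-1b replicate 1, and without it the log2 fold change was 0.13. Epsti1 was too dim to test, between 1.37 and 13.7 on the 4 arrays and below background on each.

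**Figure D5:**
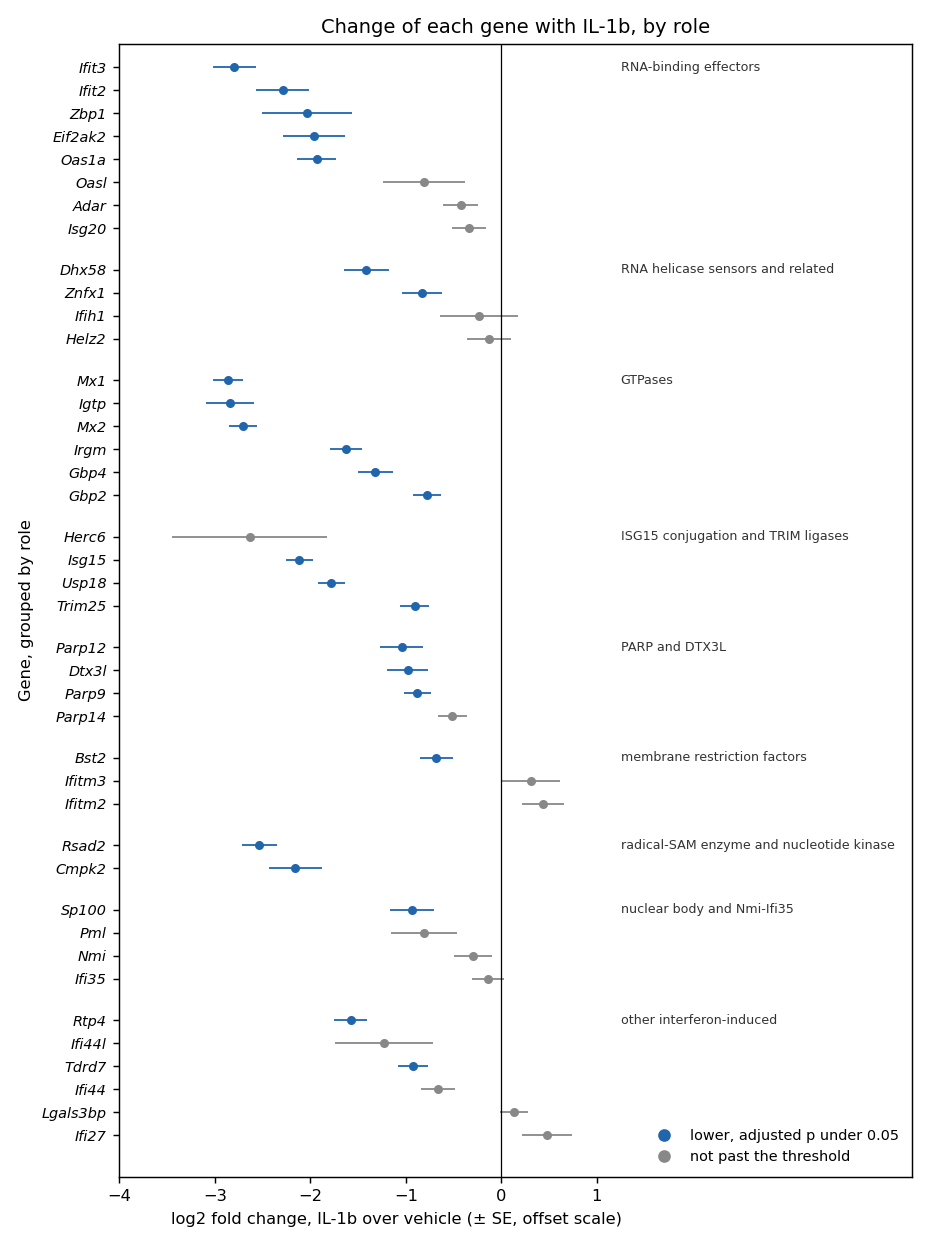
Log2 fold change of IL-1b over vehicle with its standard error (x axis, offset log2 scale, 2 arrays per group) for the 41 tested genes grouped by role (y axis). Blue points passed an adjusted p of 0.05 and grey points did not. The GTPases, at -2.87 to -0.78, are blue throughout, and the points to the right of 0 are Ifi27, Ifitm2, Ifitm3 and Lgals3bp (the last below 0 with median centring, and Ifitm3 without IL-1b replicate 1).

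Several of these genes lie side by side in the rat genome (order of protein-coding genes on the GRCr8 assembly), and the values of neighbours are given together here. Rsad2 and Cmpk2 are adjacent on chromosome 6, with log2 fold changes of -2.53 and -2.16. Parp9, Dtx3l and Parp14 follow each other on chromosome 11, at -0.88, -0.98 and -0.51. On the same chromosome Mx1 and Mx2 are separated by 1 gene, at -2.87 and -2.71. On chromosome 1 Ifit2 and Ifit3 are adjacent, at -2.29 and -2.80, and Ifitm2 and Ifitm3 are separated by 1 gene. Gbp4 and Gbp2 are adjacent on chromosome 2, at -1.32 and -0.78. Many of these neighbours are also related in sequence, so their probe sets may share signal.

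Of the 10 genes with several probe sets tested, all had the same sign at each of their probe sets. In 8 of the 10 the probe sets also gave the same call, and the other two were Dhx58 and Tdrd7. The other probe set of Tdrd7 gave -1.48 (adjusted p = 0.058).

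Genes upstream in the interferon pathway were read on the same arrays. Of 30 such genes with a probe set 25 were tested, of which 2 fell and 5 rose, beside 8.13% lower and 7.19% higher over all genes. The share that fell was thus near that of all genes. The 25 genes had a median log2 fold change of 0.18, beside -0.01 for all genes. The genes for the interferons Ifnb1, Ifng and Ifnk were below background on all 4 arrays, so no change could be detected in them. The 2 genes that fell were both transcription factors of the type I pathway. Stat2 read 1063 and 972 with vehicle and 398 and 400 with IL-1b, a log2 fold change of -1.34 ± 0.15 (adjusted p = 0.0016), and Irf7, which drives interferon genes and is itself interferon-induced, fell 2.08-fold (adjusted p = 0.011). Irf9 missed the threshold at its brightest probe set (log2 fold change -0.46, adjusted p = 0.13) and fell at the other (-0.69, 0.040).

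Of the 9 receptor and kinase genes tested, 0 fell and 3 rose, beside 8.13% lower and 7.19% higher over all genes. At an unadjusted p of 0.05 in limma, 0 were lower and 5 higher, beside 1592 and 1398 of all 10000 genes. With 9 genes, a count of 0 lower is too small to read against the share of all genes. The interferon gamma receptor chains Ifngr1 and Ifngr2 rose 1.94-fold and 3.06-fold (adjusted p = 0.0053 and 0.0041), and the kinase Jak2 4.57-fold from 118 and 80.9 to 517 and 419 (0.0023). Ifngr1 missed the threshold without vehicle replicate 1 (0.078) and with median centring (0.25). Ifnar1 had a log2 fold change of 0.29 (adjusted p = 0.40) at its brightest probe set, with 1 of its other probe sets past the threshold at 0.89. Ifnar2 stood at 0.65 (adjusted p = 0.063). Neither of these type I receptor chains passed the test at its brightest probe set. With median centring Ifnar1 and Ifnar2 stood at 0.08 and 0.45 (limma adjusted p = 0.94 and 0.58). Socs3, an inhibitor of Janus kinases, rose 5.10-fold (adjusted p = 0.029), and missed the threshold without vehicle replicate 1 or 2 (0.10 and 0.089). Ticam1, the adaptor of Tlr3, rose 1.96-fold (adjusted p = 0.042), and missed it without vehicle replicate 1 or 2 (0.32 and 0.096). The pathway counts depended on which arrays entered the fit, as did the counts over all genes, so nothing about the pathway is read from their changes.

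Antigen presentation genes, which interferons also induce, were few. Of 11 tested, 2 fell and 1 rose, beside 8.13% lower and 7.19% higher over all genes, and nothing about the group is read from counts this small. The immunoproteasome subunits Psmb8 and Psmb9 fell 2.08-fold and 1.73-fold (adjusted p = 0.020 and 0.010), and the proteasome activator Psme2 rose 1.51-fold (0.041). Each of these calls was lost without vehicle replicate 1 or 2 (adjusted p = 0.059 and 0.057 for Psmb8, 0.15 and 0.18 for Psmb9, 0.52 and 0.50 for Psme2).

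Marker genes were read on the same arrays. Smooth muscle markers were above background on every array for 7 of 7 genes, and 6 of the 7 fell, beside 8.13% of all genes. Des did not pass (log2 fold change 0.32, limma adjusted p = 0.8), and its groups overlapped. The summed intensity of the smooth muscle markers was 30735 and 31511 with vehicle and 11660 and 8692 with IL-1b. Of 8 macrophage markers 1 (Cd14) was above background on every array, and the summed intensity was 738 and 687 with vehicle and 1735 and 2004 with IL-1b. Most of that difference was in Lyz2, at 3.83 and 10.2 with vehicle and 685 and 969 with IL-1b, while the pan-leukocyte gene Ptprc was between 0.713 and 94.9 over its 2 probe sets. Endothelial markers summed to 127 and 173 with vehicle and 259 and 117 with IL-1b (1 of 6 above background on every array), and lymphocyte markers to 138 and 34.6 against 191 and 117 (0 of 5). Fibroblast markers summed to 826 and 786 against 1355 and 1913 (3 of 5). Pdgfra and Dpt rose, whereas Lum and Thy1 did not pass and Dcn was too dim to test. The log2 fold changes of Lum and Thy1 were 0.94 and -0.15 (limma adjusted p = 0.078 and 0.72). In bulk RNA, fewer cells of a type and less RNA per cell cannot be told apart, and the part of cell makeup in the interferon-induced genes was not tested.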

How the data were processed

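Each sample's total RNA gave biotinylated cRNA for its own single-colour Affymetrix array, per the labels' protocols. The deposited intensities are linear values from MAS5, per the submitters' processing notes; its version is not given in the sources used here. Without the lowest and highest 2% of values every array averaged 250.0, so no further scaling was applied. An offset of 5.49 (the 10th percentile) was added before log2. Leaving out 57 control probe sets, those with a mean log2 value at or above the 40th percentile (5.37) were kept. Fits to the resulting 18625 used limma 3.58.1 in R 4.3.3 (lmFit, and eBayes with an intensity trend, 2 residual degrees of freedom), with Benjamini-Hochberg adjustment over all of them and 0.05 as the threshold. The procedure was tested on simulated data. A gene was represented by its brightest tested probe set with 1 symbol in the platform annotation (20826 probe sets had 1, 436 several, 9780 none). Identifiers of all 43 genes matched current RefSeq entries. The number of arrays limits the precision. Alternatives were other offsets, scalings, filters, variance models and thresholds, a replicate block, the mean over a gene's probe sets, and leaving out each array; a background floor was added after the data were examined. Every gene of the group was named, and other genes by size of change past the threshold or place at the start of the pathway. The group, lists and tests were chosen with earlier results of these data known.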

Additional observations from a re-analysis of the deposited data

How the results depend on the processing

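Of the 41 tested interferon-induced genes, 15 kept direction and call in all 16 alternatives, 23 changed their call in at least 1, and 4 changed sign in 1, with Ifitm3 among both. The sign changes were Lgals3bp (-0.073 with median centring), Ifitm3 (-0.13 to 0.76 when single arrays were left out), Ifih1 (-0.68 to 0.20 likewise) and Helz2 (-0.36 to 0.10 likewise), and none of these 4 passed in the reported fit. The cause was not tested. Without the intensity trend 13 of the group fell, 1 pathway gene fell and 2 rose, and 279 genes of the array fell and 297 rose. At an adjusted p of 0.01, 1 pathway gene fell and 3 rose, and 391 genes fell and 383 rose. With median centring 3 pathway genes and 337 genes of the array rose, and the median of the group was -1.14. With quantile normalization 1 of the group, Ifitm2, rose. Leaving out each array gave 15 to 31 of the group lower and 0 to 3 higher, a median of -1.25 to -0.96, 2 to 6 pathway genes lower and 2 to 10 higher, and 399 to 2714 genes lower and 425 to 2282 higher over the array. With 1 residual degree of freedom these fits rest on the spread of the other group. Deviations of same-numbered arrays correlated at 0.091 over 18625 probe sets, so the samples share a number and no shown pairing. The fit with the replicate block gave 26 of the group lower (the 25 and Herc6, adjusted p = 0.011) and 0 higher, and 1055 genes lower and 873 higher. Precision is limited by 2 arrays per group, and dim genes (Ifit1, Epsti1, Herc6, Ifi44l) lie near background on at least 1 array.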
